A study of Mus musculus with 34 samples.

Results

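The integrins and laminins of the stromal vascular fraction (SVF) of visceral fat were followed as 36 genes, found by their symbols among the 32098 genes listed. They comprised 18 integrin alpha subunits, 8 integrin beta subunits and 10 laminin chains (5 alpha, 3 beta and 2 gamma). RNA-seq had been done on 34 libraries of visceral white adipose tissue. The male C57BL/6J mice ate a control diet (CHOW) or a diet high in fat (HFD) from 6 weeks of age and were fasted for 6 hours before tissues were taken. After 8 weeks there were 4 CHOW and 6 HFD libraries, after 20 weeks 5 CHOW and 6 HFD libraries, and after 34 weeks 7 CHOW and 6 HFD libraries. No genetic change is listed for any mouse, and the control diet was either of 2 formulations, with no record of which sample had which. Time on the diet and age cannot be told apart, since all mice started at the same age. The SVF is the cell pellet left when adipocytes float off digested fat, so every value below is an average over immune, stromal, vascular and mesothelial cells. Values are TPM (transcript shares of a library), which are corrected for transcript length and can therefore be compared between genes. They keep no read depth, so the depth of a library is unknown.

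Integrins are receptors that span the cell membrane as pairs of an alpha and a beta subunit, and hold cells to the surrounding matrix or to other cells. The pairing sets the ligand: pairs with the beta 2 subunit are found on leukocytes and bind ICAMs and complement fragments, alpha 5 with beta 1 binds fibronectin, alpha v with beta 5 binds vitronectin and MFG-E8, and alpha 3, 6 and 7 bind laminins. Laminins are trimers of an alpha, a beta and a gamma chain and are the main scaffold of basement membranes, which in fat surround adipocytes, vessels and the mesothelium. Itgax (CD11c) is widely used as a surface marker of dendritic cells and of the macrophages that gather in obese fat.

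The lists of marker genes showed the mixture that the label SVF implies, as well as other tissue. The summed level of 12 macrophage markers lay between 5245 and 20650 TPM over all libraries, and that of 10 fibroblast and progenitor markers between 3161 and 11960 TPM. None of the macrophage, fibroblast or endothelial markers was at 0 throughout a group. A list of 7 seminal vesicle genes reached 120800 TPM in HFD 8 weeks replicate 3 and at most 15.9 TPM elsewhere. A list of 8 germ cell genes reached 12650 TPM in HFD 20 weeks replicate 5, 2380 and 2982 TPM in replicates 3 and 4 of that group, 5142 and 5525 TPM in HFD 34 weeks replicates 1 and 2, and at most 1141 TPM elsewhere. Adipocyte genes (10) summed to 21450, 68190 and 25670 TPM in CHOW 34 weeks replicates 5, 6 and 7, against 2858 to 11300 TPM in all other libraries. CHOW 20 weeks replicate 2 had 5906 TPM of a list of 10 genes of lipid-associated macrophages, where the other 4 libraries of its group had at most 2291 TPM. HFD 8 weeks replicate 3, CHOW 20 weeks replicate 2, HFD 20 weeks replicate 5 and CHOW 34 weeks replicates 5, 6 and 7 are called the libraries set apart, and are left out together below where that moves a result. CHOW 20 weeks replicate 2 was chosen by genes that were higher on HFD at that time. A larger diet difference or interaction without it is therefore no independent support. CHOW 8 weeks replicate 3 had 2031 TPM of neutrophil genes and 286 TPM of endothelial genes, where the other 3 libraries of its group had 1094 to 1634 TPM of the latter. That library and the other 4 rich in germ cell genes were left out only 1 at a time. The labels number the replicates without saying that each came from a separate mouse, so the tests measure the spread between these libraries.

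Of the 36 members, 33 reached the level needed for testing in the 8 and 20 week table and 30 in the 34 week table. Itga8, Itgb6 and Lama1 were too low at every time, with highest values of 1.69, 0.325 and 0.276 TPM, and Itga2, Itgb8 and Lamb3 were too low in the 34 week table. By mean TPM over the 21 libraries of 8 and 20 weeks, Itga5 (315 TPM), Itgb1 (290.1 TPM) and Itgb2 (288 TPM) led, followed by the laminin chains Lamc1 (192 TPM), Lamb2 (152 TPM) and Lamb1 (150.3 TPM). Itga5, Itgb1 and Itgb2 overlapped in their ranges and changed places between libraries, as did Lamb1 and Lamb2, so these neighbours are not ordered beyond their spread. Itgb1 was above Lamc1, Lamb1 and Lamb2 in each of the 21 libraries. At 34 weeks Itgb2 (318 TPM), Itgb1 (265 TPM) and Itgb5 (150.3 TPM) led, and Itga5 was the ninth with 72.7 TPM. Itgb6, an epithelial subunit, was listed at 0 in all 7 CHOW libraries of that time.

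The question for each contrast was which members differed between the diets, or between times, by more than their spread. A limma fit on log2(TPM + 1) over all genes gave the adjusted p-values, and each log2 fold change is on that scale. In the comparison of HFD with CHOW at 20 weeks, 7 of the 33 members tested (21.2%) passed an adjusted p of 0.05, against 14.3% of all 16808 genes. Itgax, Itgb5 and Itgav were higher on HFD and Lamc3, Itgb7, Itgal and Itga3 were lower. Among all genes 9.32% were called higher and 4.99% lower. The median log2 fold change was -0.02 over the members and 0.08 over all genes. On HFD between 8 and 20 weeks 7 members (21.2%) passed as well, against 8.78% of all genes. Of these Itgax, Itga5, Itgav, Itgb5 and Itga2b rose (6.12% of all genes were called higher) and Itgb7 and Itga2 fell (2.65% of all genes were called lower). Itgax, Itgb5, Itgav and Itgb7 passed in both comparisons, each in the same direction. Both comparisons use the same 6 HFD libraries of 20 weeks, so a call in one is no independent support for the same call in the other.

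In the other comparisons no member passed the limma test. At 8 weeks 0 of 33 passed and 5 had an unadjusted p under 0.05, where 0.0238% of all genes were called. At 34 weeks 0 of 30 passed and 3 had an unadjusted p under 0.05 (0.243% of all genes were called). From 8 to 20 weeks on CHOW 0 of 33 passed and 5 had an unadjusted p under 0.05 (0.613% of all genes). In the diet by time interaction, which asks whether the effect of HFD at 20 weeks differed from that at 8 weeks, 0 of 33 passed and 8 had an unadjusted p under 0.05 (0.297% of all genes). An effect that passed at 20 weeks and not at 8 weeks was therefore not shown to differ between these times in this fit.

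**Figure D1:**
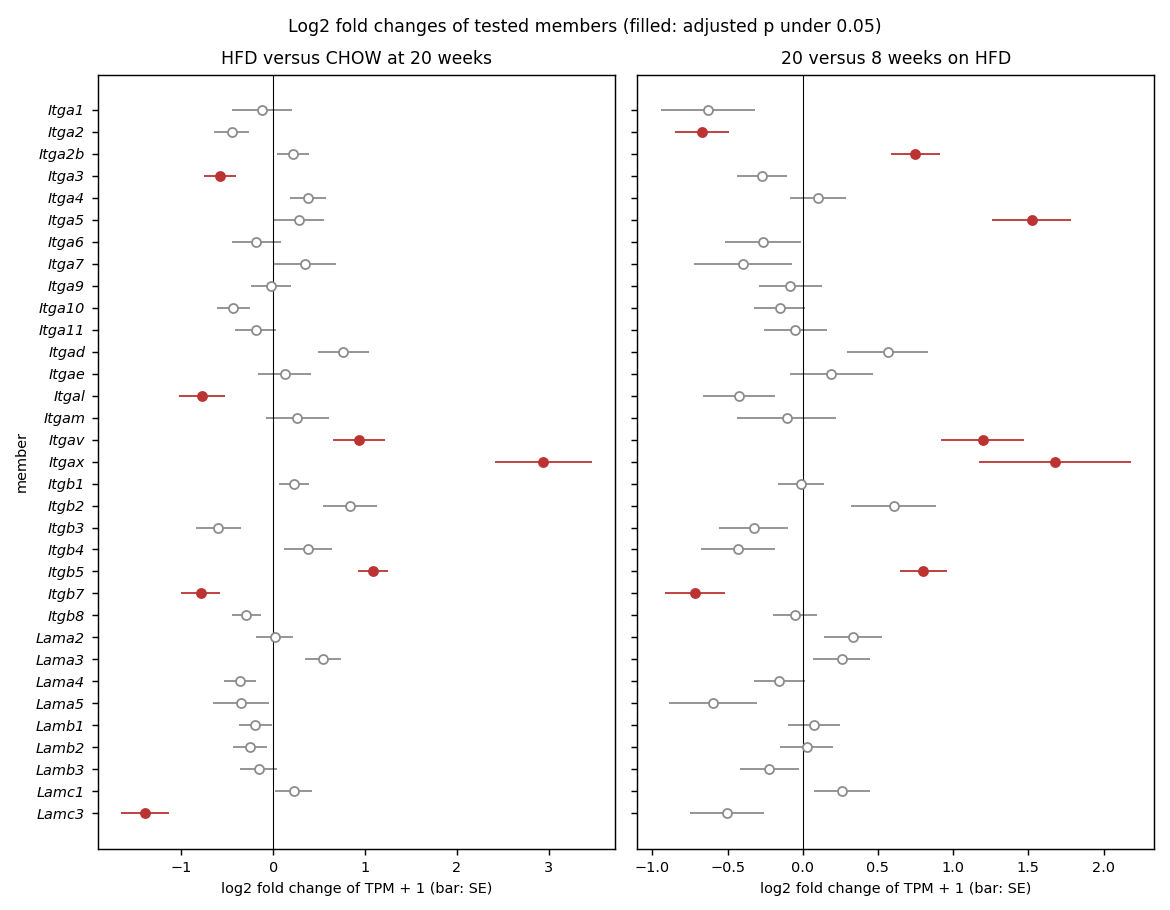
Log2 fold changes of TPM + 1 (x axis, with standard errors as bars) of the 33 tested members (y axis) for HFD against CHOW at 20 weeks and for 20 against 8 weeks on HFD, with filled points at an adjusted p under 0.05. Itgax lies farthest to the right in both panels (2.94 and 1.68) and Lamc3 farthest to the left at 20 weeks (-1.40).

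Among the leukocyte integrins, Itgax showed the largest difference between the diets of all members at 8, 20 and 34 weeks. At 8 weeks it was at 13.5, 26.8, 21.6 and 20.2 TPM on CHOW, and at 18.2 (lowest), 53.1 (median) and 106.5 TPM (highest) on HFD. At 20 weeks it was at 18.8, 140.3, 10.9, 10.3 and 11.3 TPM in the 5 CHOW libraries, and at 96.6, 164 and 271 TPM (lowest, median and highest) in the 6 HFD libraries. Thus 4 CHOW libraries lay far below every HFD library, and CHOW replicate 2 lay among them. The log2 fold change at 20 weeks was 2.94 ± 0.53 (SE), with an adjusted p of 0.00116 by limma, and it was 3.60 without the libraries set apart. The list of lipid-associated macrophage genes, which does not hold Itgax, moved with it. That list summed to 1672 to 5906 TPM on CHOW and 9407 to 15810 TPM on HFD at 20 weeks. Of its 10 genes 10 were called higher, where 9.32% of all genes were. The list was chosen with earlier results of these data known, so this count is no independent support. The part of the list in the level of Itgax was not tested. In this bulk tissue, more cells of a type and more RNA per cell cannot be told apart.

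Between 8 and 20 weeks on HFD Itgax rose by 1.68 ± 0.50 on the log2 scale (adjusted p = 0.0424, limma), with overlapping libraries. The call held in 4 of the 12 fits that left out 1 library, and the highest adjusted p among them was 0.0892. At 34 weeks the groups did not overlap: Itgax was at 3.44, 28.3 and 84.4 TPM (lowest, median and highest) on CHOW and at 103, 144 and 169.7 TPM on HFD. There the difference was 2.42 ± 0.56, and its adjusted p of 0.112 missed the threshold. Without the adipocyte-rich CHOW replicates 5, 6 and 7 it was 1.46 (adjusted p = 0.122). At 8 weeks it was 1.30 ± 0.56 (adjusted p = 0.462), and the interaction was 1.64 ± 0.77 (adjusted p = 0.356).

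Itgam (CD11b), the alpha subunit of complement receptor 3, lies next to Itgax on chromosome 7 and did not pass in any comparison. At 20 weeks it was at 161, 235, 64.5, 82.8 and 60.0 TPM on CHOW and at 93.8, 127 and 187 TPM (lowest, median and highest) on HFD, a log2 fold change of 0.26 ± 0.35. At 8 weeks on CHOW it was at 129, 142, 328 and 104 TPM, so the change from 8 to 20 weeks on CHOW was -0.60 ± 0.38. CHOW 8 weeks replicate 3 stood well above the other 3 libraries. Itgb2, the beta subunit that all of these alpha subunits need, was at 243, 405, 135, 178 and 169 TPM on CHOW and at 273, 344 and 628 TPM (lowest, median and highest) on HFD at 20 weeks. Its log2 fold change of 0.84 ± 0.30 had an adjusted p of 0.061 (limma), and it passed once CHOW 20 weeks replicate 2 was left out. That library was the highest of its group in Itgb2. Given how it was chosen, this pass is no independent support. Itgal (CD11a), the alpha subunit of LFA-1 of lymphocytes and other leukocytes, was at 21.1, 44.5, 17.4, 20.4 and 20.7 TPM on CHOW and at 10.8, 14.1 and 15.4 TPM on HFD. All CHOW libraries were higher than all HFD libraries. The log2 fold change was -0.77 ± 0.25 (adjusted p = 0.0443, limma), but without the libraries set apart it was -0.50 (adjusted p = 0.102), and the call held in 2 of the 11 fits that left out 1 library. Nearest to Itgal over the 21 libraries was the list of 8 dendritic cell genes (Spearman's rho 0.81), and the list of 8 neutrophil genes came second (rho 0.77). Here and below, rho with a list was taken with the mean log2(TPM + 1) of its genes, not with their summed TPM. The neutrophil list summed to 193 to 1425 TPM on CHOW, highest in replicate 2, and to 33.2 to 513 TPM on HFD at 20 weeks. Of its 6 tested genes 1 was called lower at 20 weeks, as were 2 of 10 genes of T and NK cells. The part of these lists in Itgal was not tested. At 8 weeks Itgal was at 23.4, 40.9, 37.1 and 17 TPM on CHOW and at 10.2, 18.1 and 27.4 TPM on HFD (log2 fold change -0.60 ± 0.27, adjusted p = 0.485). Itgad stayed between 0 and 3.02 TPM in every library.

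Shares were taken of the summed TPM of the 4 alpha subunits that pair with beta 2. By group mean, Itgam held the main share in each CHOW group and Itgax in HFD mice at 20 and 34 weeks. Single libraries differed: Itgam was above Itgax in HFD 20 weeks replicate 3 (147 and 96.6 TPM) and HFD 34 weeks replicate 1 (132 and 103 TPM). On CHOW the Itgax share was 10.2% ± 4.04 (SD, n = 4) at 8 weeks, 15.1% ± 10.3 (SD, n = 5) at 20 weeks and 21.2% ± 8.67 (SD, n = 7) at 34 weeks. On HFD it was 25.4% ± 8.11, 53.9% ± 8.86 and 53.0% ± 5.88 (SD, n = 6 each). The Itgam share was 68.3% ± 8.81 (SD, n = 5) on CHOW and 41.1% ± 8.31 (SD, n = 6) on HFD at 20 weeks, and that of Itgal 16% ± 5.27 and 4.44% ± 1.22. The ranges of the Itgax share on CHOW (8.90% to 33.4%) and HFD (37.2% to 62.0%) at 20 weeks did not overlap, and CHOW replicate 2 was again the highest of its group. These shares describe the same values as above and were not tested.

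**Figure D2:**
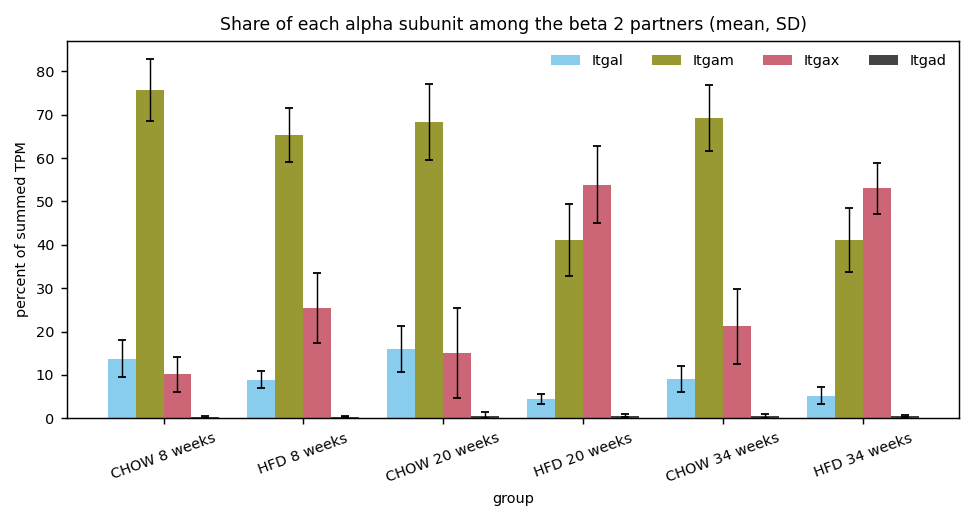
Percent of the summed TPM of Itgal, Itgam, Itgax and Itgad (y axis) that each takes in the 6 groups (x axis), as the mean with the SD over libraries. Itgam is the tallest bar in every CHOW group and at 8 weeks on HFD, and Itgax (53.9% and 53.0%) is the tallest on HFD at 20 and 34 weeks.

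Itgax and Itgam are neighbours on the same strand (chromosome 7, 128129547 to 128150657 and 128062640 to 128118491, GRCm38) and only Itgax passed a test, so the promoters of both are shown. Each sequence runs from 250 bases before to 50 bases after the transcript start in RefSeq (GRCm38.p6), 5′ to 3′, on the plus strand, at chr7:128129300-128129599 for Itgax and chr7:128062390-128062689 for Itgam. Capitals mark matches, on either strand, to AP-1 (TGANTCA), SP1 (GGGCGG), PU.1 (GAGGAAGT) or the CArG box bound by SRF.
Itgax: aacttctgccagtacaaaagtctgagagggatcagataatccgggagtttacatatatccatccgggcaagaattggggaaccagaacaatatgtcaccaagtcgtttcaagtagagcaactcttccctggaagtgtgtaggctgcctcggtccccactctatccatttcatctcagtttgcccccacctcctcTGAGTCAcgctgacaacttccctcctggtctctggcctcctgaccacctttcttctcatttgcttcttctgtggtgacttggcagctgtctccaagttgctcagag
Itgam: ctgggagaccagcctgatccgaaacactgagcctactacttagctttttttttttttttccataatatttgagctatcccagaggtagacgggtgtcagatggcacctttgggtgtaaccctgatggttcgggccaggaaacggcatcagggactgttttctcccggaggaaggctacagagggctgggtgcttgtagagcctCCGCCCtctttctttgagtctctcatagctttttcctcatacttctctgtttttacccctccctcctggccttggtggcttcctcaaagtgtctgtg
The Itgax promoter held 1 AP-1 match, from base -56, and none of the other 3 motifs. The Itgam promoter held 1 SP1 match, from base -47, and no other. Of 32851 promoters of the same length, 7.81% held an AP-1 match, 35.7% an SP1 match, 3.20% a PU.1 match and 1.63% a CArG box. A match is a string of letters and not a measured binding site.

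Of the receptors for vitronectin and fibronectin, Itgb5 and Itgav were higher on HFD at 20 weeks, and Itga5 was higher at 20 than at 8 weeks. Itgb5 was at 71.0, 78.2, 72.1, 59.2 and 58.2 TPM on CHOW and at 120.4, 139 and 174 TPM (lowest, median and highest) on HFD at 20 weeks. Every HFD library was above every CHOW library. Its log2 fold change of 1.09 ± 0.16 had the lowest adjusted p of all members (0.00025, limma) and stayed between 0.99 and 1.17 over all alternative settings. At 8 weeks Itgb5 was at 66.9, 61.2, 57.2 and 62.5 TPM on CHOW and at 56.3, 87.1 and 119 TPM on HFD (log2 fold change 0.41 ± 0.18, adjusted p = 0.457). Over time on HFD it rose by 0.80 ± 0.16 without overlap (adjusted p = 0.00272, limma). The interaction was 0.68 ± 0.24 (adjusted p = 0.273). At 34 weeks it was at 89.9, 117 and 262 TPM on CHOW and at 144, 159 and 191 TPM on HFD, and the CHOW group, with replicate 4 the highest library of both, spanned the HFD group.

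Itgav was at 38.7, 79.4, 65.0, 40.8 and 37.7 TPM on CHOW and at 77.1, 92.2 and 148 TPM (lowest, median and highest) on HFD at 20 weeks. The lowest HFD library was just below the highest CHOW library, which was again replicate 2. The log2 fold change was 0.94 ± 0.29 (adjusted p = 0.035, limma) and was 1.16 without the libraries set apart, but the call held in only 5 of the 11 fits that left out 1 library. At 8 weeks Itgav was at 27.8, 21.4, 54.9 and 20.4 TPM on CHOW and at 20.3, 42.1 and 61.9 TPM on HFD, so that it rose by 1.20 ± 0.27 from 8 to 20 weeks on HFD (adjusted p = 0.00883, limma), without overlap. That call held in all 12 fits. On CHOW the same difference was 0.78 ± 0.32 (adjusted p = 0.301). At 34 weeks it was at 4.78, 19.5 and 51.0 TPM on CHOW and at 28.3, 37.3 and 41.5 TPM on HFD. The difference there, 0.73 ± 0.40, came to 0.06 without CHOW replicates 5, 6 and 7.

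Both members that rose together in this pair of subunits have promoters in RefSeq, shown as above on the plus strand, at chr16:33829415-33829714 for Itgb5 and chr2:83724147-83724446 for Itgav.
Itgb5: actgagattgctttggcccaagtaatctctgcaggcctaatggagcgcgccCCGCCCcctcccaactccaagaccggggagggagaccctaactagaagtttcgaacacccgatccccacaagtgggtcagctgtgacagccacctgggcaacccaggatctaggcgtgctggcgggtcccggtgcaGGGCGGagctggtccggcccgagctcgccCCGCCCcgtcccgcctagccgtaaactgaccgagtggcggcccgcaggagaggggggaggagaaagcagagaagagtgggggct
Itgav: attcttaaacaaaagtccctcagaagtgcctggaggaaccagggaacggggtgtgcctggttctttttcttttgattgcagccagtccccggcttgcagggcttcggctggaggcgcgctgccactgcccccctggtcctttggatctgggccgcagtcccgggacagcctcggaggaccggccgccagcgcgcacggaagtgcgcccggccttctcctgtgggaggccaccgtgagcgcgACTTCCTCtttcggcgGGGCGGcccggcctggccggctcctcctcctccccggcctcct
The Itgb5 promoter held 3 SP1 matches, 2 of them on the minus strand. The Itgav promoter held 1 SP1 match downstream of the start and 1 PU.1 match on the minus strand, from base -9. The 2 promoters shared only the SP1 motif, which 35.7% of all promoters hold. Itgb5 and Itgav followed each other over the 21 libraries of 8 and 20 weeks with a Spearman's rho of 0.81, and Itgb5 and Itgax with 0.84. These values describe libraries that differ in diet, time and cell mixture and carry no test. The list of lipid-associated macrophage genes followed all 3, with rho of 0.93 for Itgax, 0.83 for Itgb5 and 0.77 for Itgav.

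Itga5, the alpha subunit of the classical fibronectin receptor, passed between times on HFD and in no comparison of diets. It was at 185, 184, 224 and 179.7 TPM on CHOW and at 52.1, 174 and 279 TPM (lowest, median and highest) on HFD at 8 weeks. At 20 weeks it was at 319, 457, 439.8, 369.9 and 351 TPM on CHOW and at 415, 450.2 and 602 TPM on HFD. No library of 20 weeks overlapped with a library of 8 weeks on the same diet. On HFD the rise was 1.52 ± 0.26 (adjusted p = 0.000965, limma) and it was 1.22 without the libraries set apart, with the lowest 8 week value in the library rich in seminal vesicle RNA. On CHOW the difference was 0.99 ± 0.31 (adjusted p = 0.145, limma). It passed in 5 of 10 alternative settings and in 0 of 9 fits that left out 1 library. Without the libraries set apart, 1 of these settings, it was 0.93 (adjusted p = 0.0101, limma). The interaction was 0.53 ± 0.41 (adjusted p = 0.547, limma), so the rise was not shown to differ between the diets. The difference between HFD and CHOW at 20 weeks was 0.28 ± 0.28 (adjusted p = 0.537). In the separate 34 week table Itga5 was at 22.3, 70.7 and 161 TPM on CHOW and at 46.2, 76.5 and 103 TPM on HFD. These values stood below those of 20 weeks, but they come from a table of their own and were not compared by a test. Of the summed TPM of the alpha subunits that pair with beta 1, Itga5 took 66.2% ± 1.71 (SD, n = 5) on CHOW and 66.6% ± 1.48 (SD, n = 6) on HFD at 20 weeks, and 30.6% ± 11.9 (SD, n = 7) and 37.0% ± 6.95 (SD, n = 6) at 34 weeks. A list of 7 mast cell genes followed Itga5 with a rho of 0.80 over the 21 libraries. Between the diets at 20 weeks 6 of these 7 genes were called higher on HFD, where Itga5 did not pass. The part of the list in Itga5 was not tested.

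The beta 1 subunit itself, the partner of most alpha subunits, passed in no comparison. Group means of Itgb1 ranged from 250.6 to 314 TPM, and its log2 fold changes over the 6 comparisons lay between -0.12 and 0.23. Itgb3, which pairs with alpha v and with the platelet subunit, had group means of 4.05 to 8.43 TPM and did not pass at 20 weeks (-0.60 ± 0.24, adjusted p = 0.101). Itgb8, which with alpha v activates latent TGF-beta, had group means of 0.624 to 0.998 TPM, and passed in no comparison.

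**Figure D3:**
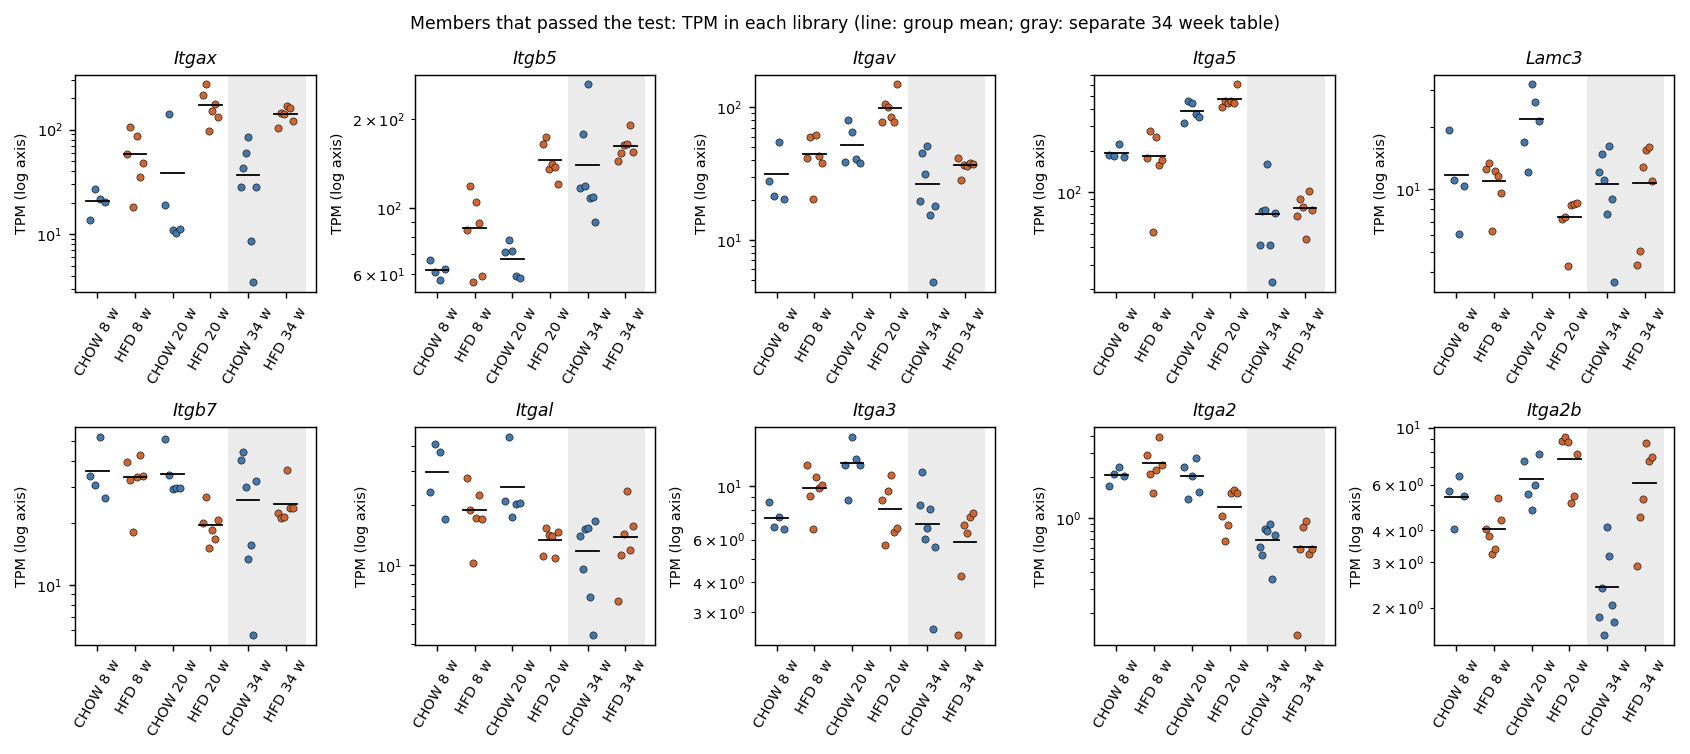
TPM (y axis, log scale) in each library of the 10 members that passed in a comparison, by group (x axis), with a line at each group mean, CHOW in blue and HFD in orange, and the separate 34 week table on gray. All HFD values of Itgb5 at 20 weeks lie above all CHOW values of that time, and those of Lamc3, Itgb7 and Itgal lie below them.

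Itgb7, which pairs with alpha 4 and alpha E on lymphocytes, mast cells and dendritic cells, was lower on HFD at 20 weeks. It was at 51.1, 34.3, 29.4, 29.6 and 29.8 TPM on CHOW and at 15, 19.2 and 26.8 TPM (lowest, median and highest) on HFD, with no overlap. The groups differed by -0.79 ± 0.21 on the log2 scale (adjusted p = 0.0187, limma). It was lost, with an adjusted p of 0.0522, only without CHOW replicate 1, the highest library of its group. At 8 weeks it was at 33.7, 30.5, 52.6 and 26.4 TPM on CHOW and at 18.1, 33.8 and 42.9 TPM on HFD. Over time on HFD it fell by 0.72 on the log2 scale (SE 0.20, adjusted p = 0.0315, limma), and that call held in 6 of 12 fits. At 34 weeks it was at 5.71, 29.9 and 44.5 TPM on CHOW and at 21.2, 23 and 36.4 TPM on HFD, and did not pass (0.16 ± 0.38). Its partners Itga4, with group means of 12.8 to 21.3 TPM, and Itgae, at 1.06 to 1.70 TPM, passed in no comparison. Itgal and Itgb7 were each other's nearest member over the 21 libraries (rho 0.85). A list of 8 dendritic cell genes followed Itgb7 with a rho of 0.83 and Itgal with 0.81. That list summed to 140 to 187 TPM on CHOW and 59.2 to 86.9 TPM on HFD at 20 weeks, with 1 of its 8 genes called lower. The mast cell list ran opposite to Itgb7 (rho -0.49), and 6 of its 7 genes were called higher on HFD at 20 weeks. Of 10 genes of T and NK cells 2 were called lower there, and of 6 B cell genes 0 were called. The part of these lists in the members was not tested.

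Itga2b (CD41), best known as the alpha subunit of the platelet fibrinogen receptor, rose from 8 to 20 weeks on HFD. It was at 3.24, 3.92 and 5.34 TPM (lowest, median and highest) at 8 weeks and at 5.11, 8.37 and 9.21 TPM at 20 weeks, with some overlap. The difference was 0.75 ± 0.17 (adjusted p = 0.00655, limma) and was kept in each of the 12 leave-one-out fits, but with quantile normalization it was 0.59 and missed the threshold (adjusted p = 0.0609). On CHOW it was at 5.65, 4.04, 6.46 and 5.42 TPM at 8 weeks and at 7.41, 5.53, 4.79, 5.97 and 7.92 TPM at 20 weeks. At 34 weeks it was at 1.57, 2.04 and 4.11 TPM on CHOW and at 2.89, 6.35 and 8.71 TPM on HFD, a log2 fold change of 1.03 ± 0.23 that missed the threshold (adjusted p = 0.112). Of the marker lists, that of mast cells was the nearest to Itga2b over the 21 libraries of 8 and 20 weeks, followed by that of B cells (rho 0.54). Mast cell genes summed to 131 to 289.8 TPM at 8 weeks and 610.4 to 2820 TPM at 20 weeks on HFD, 7 of 7 were called higher, and rho with Itga2b was 0.81. Of the 5 tested platelet and megakaryocyte genes none was called in this comparison, and the list summed to 256 to 393 TPM and 291 to 541 TPM. Between the diets at 20 weeks 6 of 7 mast cell genes were called higher on HFD, where Itga2b did not pass (0.21 ± 0.17, adjusted p = 0.434, limma). The part of either list in Itga2b was not tested.

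**Figure D4:**
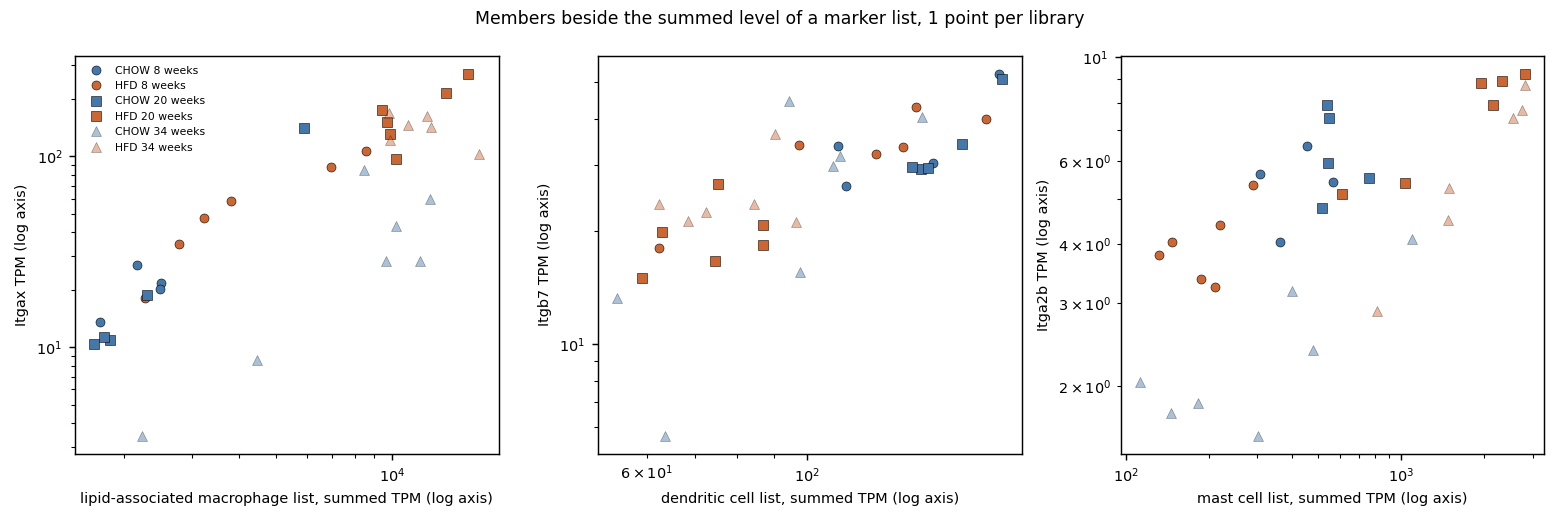
TPM of Itgax, Itgb7 and Itga2b (y axes, log scale) against the summed TPM of the lipid-associated macrophage, dendritic cell and mast cell lists (x axes, log scale), with 1 point per library, CHOW in blue, HFD in orange, circles for 8, squares for 20 and pale triangles for 34 weeks. The libraries of 8 and 20 weeks rise along each panel. Their rho values (0.93, 0.83 and 0.81) were taken with the mean log2(TPM + 1) of the list's genes, not with the sums drawn. For Itgax the CHOW libraries of 34 weeks lie below the others at the same level of the list.

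Among the subunits that bind laminin, Itga3 was lower on HFD at 20 weeks. It was at 12.3, 8.79, 16.1, 13 and 12.3 TPM on CHOW and at 5.72, 7.73 and 11.1 TPM (lowest, median and highest) on HFD, with overlap only through CHOW replicate 2. The log2 fold change was -0.58 ± 0.17 (adjusted p = 0.0312, limma), and the call held in 5 of the 11 fits that left out 1 library. At 8 weeks it was at 8.60, 6.79, 7.43 and 6.66 TPM on CHOW, all below the CHOW libraries of 20 weeks, and at 6.63, 9.97 and 12.3 TPM on HFD. The difference on CHOW was 0.67 ± 0.19 (adjusted p = 0.12) and the interaction -0.94 ± 0.26 (adjusted p = 0.138). Without the libraries set apart the interaction was -1.09 and passed (adjusted p = 0.0292). It also passed without CHOW 20 weeks replicate 2 alone (adjusted p = 0.0498, limma). Given how that library was chosen, neither pass is independent support. At 34 weeks Itga3 was at 2.54, 6.71 and 11.5 TPM on CHOW and at 2.41, 6.63 and 7.71 TPM on HFD (log2 fold change -0.20 ± 0.29). Itga6, the more abundant laminin receptor, had group means of 28.6 to 56.1 TPM and did not pass. Its partner in hemidesmosomes, Itgb4, was at 2.66, 1.16, 0.802 and 1.44 TPM on CHOW and at 1.64, 3.09 and 5.14 TPM on HFD at 8 weeks (0.69 ± 0.28, adjusted p = 0.416). Itga7, known from muscle, had its lowest log2 fold change at 34 weeks (-1.30 ± 0.59, adjusted p = 0.36), where it was at 5.66, 14.5 and 133 TPM on CHOW and at 4.39, 6.81 and 12.6 TPM on HFD. Its 3 highest CHOW libraries were those rich in adipocyte RNA, and without them the difference was -0.23. On CHOW Itga7 was at 10.4, 11.7, 6.57 and 16.8 TPM at 8 weeks and at 7.75, 6.79, 9.62, 8.76 and 4.35 TPM at 20 weeks (-0.52 ± 0.38).

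Among the collagen receptors Itga2 was the only 1 of 4 to pass. On HFD it was at 1.52, 2.36 and 3.97 TPM (lowest, median and highest) at 8 weeks and at 0.670, 1.27 and 1.62 TPM at 20 weeks, so that it fell by 0.67 on the log2 scale (SE 0.18, adjusted p = 0.0235, limma). The ranges overlapped slightly. The call was lost in a fit of the 2 groups alone (adjusted p = 0.0717) and held in 8 of the 12 fits that left out 1 library, with a highest adjusted p of 0.0627. Itga1 was at 14.5, 24.8 and 43.6 TPM in the 8 week group and at 12.7, 15.2 and 24.4 TPM in the 20 week group (-0.63 ± 0.31, adjusted p = 0.197). Itga10 was at 3.73, 3.29, 3.03 and 2.43 TPM on CHOW and at 0.877, 2.17 and 3.22 TPM on HFD at 8 weeks (-0.42 ± 0.19, adjusted p = 0.489). Itga11, a subunit of fibroblasts, had group means of 10.0 to 17.5 TPM. Itga9, which binds tenascin and VCAM1, was at 20.0, 27.9, 22.4 and 21.6 TPM at 8 weeks and at 16.9, 29.1, 21.2, 13.7 and 12.7 TPM at 20 weeks on CHOW (-0.33 ± 0.25, adjusted p = 0.634).

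Of the 9 laminin chains tested at 20 weeks, Lamc3 alone passed between the diets. This gamma 3 chain, less widespread than gamma 1, was at 17, 12.2, 31.9, 26.4 and 21.4 TPM on CHOW and at 4.30, 7.89 and 8.57 TPM (lowest, median and highest) on HFD. All CHOW libraries were above all HFD libraries, and the lowest CHOW value was again that of replicate 2. The log2 fold change was -1.40 ± 0.26 (adjusted p = 0.00145, limma) and lay between -1.62 and -1.24 over all alternatives and all fits without 1 library. At 8 weeks Lamc3 was at 19.2, 11.1, 6.12 and 10.4 TPM on CHOW and at 6.32, 11.9 and 13.3 TPM on HFD, a difference of -0.03 ± 0.27. The difference from 8 to 20 weeks was 0.87 ± 0.29 on CHOW (adjusted p = 0.18) and -0.50 ± 0.25 on HFD (adjusted p = 0.191). The interaction of -1.37 ± 0.38 had an adjusted p of 0.14, and passed without the libraries set apart (-1.73, adjusted p = 0.0261). It also passed without CHOW 20 weeks replicate 2 alone (adjusted p = 0.0449, limma). Given how that library was chosen, neither pass is independent support. At 34 weeks the groups lay over each other, at 3.57, 11.1 and 16.1 TPM on CHOW and at 4.31, 11.8 and 15.9 TPM on HFD (-0.01 ± 0.35). Mesothelial genes (9) moved the same way at 20 weeks. They summed to 244 to 873 TPM on CHOW and 76.7 to 246 TPM on HFD, 9 of 9 were called lower, and rho over the 21 libraries was 0.63 with Lamc3 and 0.58 with Itga3. The list nearest to Lamc3 was that of dendritic cells (rho 0.66), and the lipid-associated macrophage list ran opposite to it (rho -0.66). The part of these lists in the members was not tested.

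The chains that make up the common laminins passed in no comparison. Lamc1, Lamb1 and Lamb2 had group means of 131.5 to 218 TPM, 107 to 169 TPM and 91.1 to 171 TPM. Lama2 and Lama4, the alpha chains of stromal and vascular laminins, were the main alpha chains. Lama4 at 34 weeks was at 41.6, 63.7 and 93.9 TPM on CHOW and at 36.9, 55.5 and 75.4 TPM on HFD (-0.20 ± 0.19). Of the summed TPM of the alpha chains, Lama2 took 47% ± 2.12 (SD, n = 5) on CHOW and 53.3% ± 1.72 (SD, n = 6) on HFD at 20 weeks, and Lama4 took 42.7% ± 2.43 and 37.1% ± 2.02. The range of the Lama2 share was 44.9% to 50.5% on CHOW and 50.7% to 55.8% on HFD. Lama5, found in many epithelia and vessels, had group means of 7.54 to 29.2 TPM. Lama3 and Lamb3, chains of the epithelial laminin of skin, stayed at or below 2.75 and 2.03 TPM.

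The partners of these receptors were read from 3 lists. At 20 weeks 3 of 38 tested genes of focal adhesion and integrin activation were called higher on HFD and none lower, where 9.32% of all genes were called higher and 4.99% lower. Among them were Syk, a kinase downstream of immune receptors and integrins (means of 89.6 and 154 TPM, log2 fold change 0.81 ± 0.25), and Tns3, a tensin that ties integrins to actin (0.69 ± 0.18). Of 20 tested ligands and counter-receptors, 3 were higher and 1 lower. Spp1 (osteopontin), which is also on the lipid-associated macrophage list, was higher by 3.44 ± 0.77, and Mfge8, a ligand of alpha v with beta 5, by 1.32 ± 0.30, from 167 ± 61.5 TPM (SD, n = 5) to 420.4 ± 128 TPM (SD, n = 6). Npnt (nephronectin) was lower (-0.75 ± 0.23). Of 19 tested partners of laminins in the basement membrane, 1 was higher and 4 were lower. The heparan sulfate carrier Sdc1 was higher by 1.71 ± 0.25, and the collagen chains Col4a6 and Col4a3 were lower (-1.12 ± 0.28 and -0.72 ± 0.23). The adjusted p-values of these genes by limma lay between 0.000232 and 0.0391. The median log2 fold changes of the lists were 0.05, 0.22 and -0.13, beside 0.08 over all genes.

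In HFD mice, between 8 and 20 weeks, the same lists had 4 of 38, 4 of 20 and 1 of 19 genes called higher, and 0, 2 and 3 called lower, beside 6.12% of all genes called higher and 2.65% lower. The kinase Src rose by 1.36 ± 0.16 and the actin crosslinker Actn1 by 0.83 ± 0.25. Of the ligands, Spp1 rose by 2.49 ± 0.73 and Vcam1, the counter-receptor of alpha 4, by 1.82 ± 0.27, while Fn1 (fibronectin) and Npnt fell by 0.79 and 0.74 on the log2 scale. The group mean of Fn1 was 1075 TPM at 8 weeks and 608 TPM at 20 weeks. Of the basement membrane partners the heparan sulfate carrier Sdc4 rose by 1.91 ± 0.26, and the laminin receptor Bcam and Col4a3 fell by 0.95 and 0.77. The adjusted p-values of these genes lay between 1.59e-05 and 0.045 (limma). The median log2 fold changes of the lists were 0.11, -0.22 and -0.18, beside 0.09 over all genes. On CHOW over the same time 1, 2 and 1 genes of the lists were called higher and none lower, where 0.613% of all genes were called in either direction, and no gene of the lists was called at 8 or 34 weeks or in the interaction.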

How the data were processed

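RNA-seq values of 34 SVF libraries were used as deposited. As stated in the study's methods and processing notes, the authors checked reads (FastQC, MultiQC), trimmed them with Trimmomatic, quantified gencode M10 transcripts with Salmon and summed them to genes. No source used here names a tool version. The authors deposited TPM per gene, with the 21 libraries of 8 and 20 weeks in a table of their own and the 13 of 34 weeks in another. Every library summed to the same total, with 13200 to 17213 genes at 1 TPM or more. TPM is a share, so a gene falls when others, such as the erythroid genes, take more. It keeps no depth, so no interval or floor is given. Groups came from the sample titles.

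Gene identifiers were matched, without version, to gencode M21 symbols and positions (GRCm38, from 1), and 27 of the 36 members carried the same version. RefSeq promoters of 300 bases were found for 23 members. The others, Lamc3 and Itgal among them, had no such promoter in the table used. A further gene whose symbol follows the same pattern is not reported here.

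Tested genes had 1 TPM or more in at least 4 (8 and 20 weeks) or 6 (34 weeks) libraries. They were tested on log2(TPM + 1), which understates changes of low genes, with limma 3.58.1 in R 4.3.3 (1 mean per group, a mean-variance trend, two-sided, Benjamini-Hochberg over all genes, adjusted p under 0.05). The study's own test on counts was not possible on TPM. The 21 libraries of 8 and 20 weeks shared a fit, and 34 weeks was fitted alone. Alternatives were a pseudocount of 0.1, no filter, a filter at 5 TPM, quantile normalization, median-ratio scaling, sample quality weights, only the groups compared, a replicate block, robust moderation, and leaving out each library or the 6 libraries set apart. Values per library are given for members that passed and for the 3 highest and 3 lowest log2 fold changes of a comparison. Likeness is Spearman's rho over 21 libraries, for the 2 nearest members and the nearest marker lists. For a list it was taken with the mean log2(TPM + 1) of its genes, not with their summed TPM. Pathway genes are up to 2 of each direction with the largest change. The members, the lists and the libraries set apart were chosen with earlier results of these data known.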

Additional observations from a re-analysis of the deposited data

Results flagged for a closer look

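Within groups of 4 to 7 libraries, 17 of 180 member and group pairs held a library that stood apart from the rest by Dixon's test. For independent, normal values chance alone gives about 1 in 20. TPM need not be normal and the pairs share libraries, so no excess over chance is read from the count. CHOW 8 weeks replicate 3 accounted for 5 of the 17 pairs. It was high in Itgam (328 TPM, others 104 to 142), Itgb2 (340 TPM, others 209 to 230.4), Itga5 (224 TPM, others 179.7 to 185) and Lamb3 (2.03 TPM, others 0.737 to 0.842), and low in Lamb2 (90.4 TPM, others 170.0 to 177). CHOW 20 weeks replicate 2 was high in Itgax (140.3 TPM, others 10.3 to 18.8) and Itgal (44.5 TPM, others 17.4 to 21.1), and CHOW 20 weeks replicate 1 in Itgb7 (51.1 TPM, others 29.4 to 34.3). On HFD at 20 weeks replicate 3 was low in Lamc1 (139.5 TPM, others 214 to 252) and Lamc3 (4.30 TPM, others 7.19 to 8.57), and replicate 6 was high in Itga5 (602 TPM, others 415 to 458).

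At 34 weeks CHOW replicate 4 was high in Itga5 (161 TPM, others 22.3 to 75.0) and Itga9 (29.4 TPM, others 3.97 to 14.4), and CHOW replicate 6 was high in Itga7 (133 TPM, others 5.66 to 38.4) and low in Itgb1 (118 TPM, others 236 to 312). Replicate 6 also had the highest summed adipocyte genes of all libraries, 68190 TPM, and their part in these values was not tested. On HFD replicate 4 was high in Itgb7 (36.4 TPM, others 21.2 to 23.6) and replicate 6 in Lama5 (16.4 TPM, others 4.67 to 8.53).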

How the results depend on the processing

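No called log2 fold change of a member turned its direction under any setting. Of the 14 called results of members, 7 kept their call under all alternatives and 7 in all fits that left out 1 library. The calls of Itgb5 (both comparisons), of Itgax and Lamc3 at 20 weeks and of Itga5 and Itgav from 8 to 20 weeks on HFD held throughout. The count at 20 weeks (7) became 13 with quantile normalization, 12 with median-ratio scaling, 14 with quality weights and 11 without the libraries set apart, and lay between 3 and 8 when 1 library was left out (3 without CHOW replicate 1, 4 without CHOW replicate 5 or HFD replicate 2). For HFD between 8 and 20 weeks it was 4 to 7 without 1 library (4 without HFD 8 weeks replicate 1 or 5). At 34 weeks the count of 0 became 2 with quality weights (Itgax and Itga2b) and was 0 to 2 without 1 library, with 2 without CHOW replicate 4 and 1 without HFD replicate 1. From 8 to 20 weeks on CHOW it became 2 with quantile normalization, 2 with median-ratio scaling, 5 with quality weights, 1 with only the groups compared and 4 without the libraries set apart, and was 0 to 1 without 1 library (1 without CHOW 20 weeks replicate 2). For the interaction it became 2, 1, 2 and 4 with quantile normalization, median-ratio scaling, quality weights and without the libraries set apart, and was 0 to 3 without 1 library, with 3 (Itgax, Itga3 and Lamc3) without CHOW 20 weeks replicate 2. At 8 weeks it was 0 in every setting run. The calls over all genes moved in the same settings. At 20 weeks 2405 became 3502 with quantile normalization, 3608 with median-ratio scaling, 5092 with quality weights and 2998 without the libraries set apart. At 34 weeks 34 became 294 with quality weights. From 8 to 20 weeks on CHOW 103 became 325, 417, 1659, 68 and 569, in the order of settings given above. For the interaction 50 became 104, 85, 400 and 169. The causes were not tested.

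The scalings moved the balance of all calls. At 20 weeks 65.1% of the called genes were higher as deposited, 47.1% with quantile normalization and 57.6% with median-ratio scaling. On HFD between 8 and 20 weeks these were 69.8%, 40.8% and 59.1%. The median interaction over all genes went from 0.18 to -0.02 and 0.03.

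With the replicate number as a block, 8 members were called at 20 weeks (Itgb2 and Itgb3 joined, and Itgav was lost), 7 from 8 to 20 weeks on HFD, and none in the other comparisons. Over all genes 3597 were called at 20 weeks instead of 2405. The labels share only a number between groups: correlations of same-numbered libraries ran from -0.105 to 0.404, and from 8 to 20 weeks on HFD, the closest case (0.047 to 0.404), 5 of 6 libraries were nearest to their own number, which is a hint from the data and not the design.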

Other observations

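The erythroid genes, which a lysis step should reduce, summed to 27330 to 130000 TPM on CHOW and 12620 to 30450 TPM on HFD at 20 weeks, and 5 of 7 tested genes were called lower. On HFD at 8 weeks they summed to 33180 to 267900 TPM, highest in replicate 6, above every HFD library of 20 weeks. From 8 to 20 weeks on HFD, where Itgax, Itga5, Itgav, Itgb5 and Itga2b rose, 5 of 7 erythroid genes were called lower. TPM sums to a fixed total in each library. The part of the erythroid genes in the members' values was not tested. The adipocyte list followed Itgav and Itga5 in reverse over the 21 libraries of 8 and 20 weeks, with Spearman's rho of -0.87 and -0.78. At 20 weeks 1 of its 10 genes was called higher and 5 lower on HFD.

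The lipid-associated macrophage list was at 2232 to 12600 TPM in the CHOW libraries of 34 weeks, where Itgax was at 3.44 to 84.4 TPM, and at 9407 to 15810 TPM in the HFD libraries of 20 weeks, where Itgax was at 96.6 to 271 TPM. The values stand side by side across tables that were made apart, and were not tested. The Itgax share among the partners of beta 2, which is taken within a library, was 21.2% ± 8.67 (SD, n = 7) in the former and 53.9% ± 8.86 (SD, n = 6) in the latter. The lowest CHOW values of 34 weeks, of the list and of Itgax, were those of replicate 6, which was rich in adipocyte RNA. The HFD libraries of 34 weeks had 9842 to 16950 TPM of the list and 103 to 169.7 TPM of Itgax.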
